A study of Mus musculus with 2 samples.

Results

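EGR1 peaks were examined at 10 genes whose products act at synapses: Arc, Homer1, Synpo, Nptx1, Nptx2, Rheb, Plk2, Plk3, Rgs2 and Arpp21. A peak was assigned to a gene when its centre lay in the gene body or within 10000 bp of an annotated transcription start site (TSS) of that gene in GENCODE release M21. By this rule the 10 genes held 27 of the 12014 peaks in the list, at 9 of the genes. The peaks came from ChIP-seq with an antibody against EGR1, in which DNA bound by this transcription factor is pulled down and sequenced, from frontal cortices of male 129SvEv/C57BL/6N F1 mice at 6 weeks of age, with several mice pooled for each of 2 ChIP replicates. The labels give the strain as C57BL6N/129SvEv and name no mutation or treatment. The authors kept peaks whose irreproducible discovery rate (IDR) was at most 2%, merged the replicates into 1 list and gave each peak an IDR, which is read like a q-value and is low when a peak ranks high in both replicates. Reads per peak and the values of each replicate were not in the list, so the depth is unknown, no spread between replicates could be computed and no difference below was tested. The input DNA had no processed file among those analysed here, and the tissue mixes neurons with other cells, so a peak cannot be traced to a cell type.

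EGR1 is a zinc finger transcription factor encoded by an immediate early gene: its transcript appears soon after a neuron fires, before new protein is made. Genes that follow such a signal include effectors that act at the synapse itself. Arc moves AMPA receptors off the synaptic membrane, Homer1 binds metabotropic glutamate receptors, and Synpo encodes synaptopodin, an actin-associated protein of the dendritic spine apparatus. Nptx1 and Nptx2 encode secreted pentraxins that cluster AMPA receptors from the presynaptic side. Rheb is the small GTPase that activates mTORC1, the kinases Plk2 and Plk3 belong to the polo-like family, Rgs2 speeds up the inactivation of G proteins, and Arpp21 encodes a cAMP-regulated phosphoprotein that is abundant in neurons and binds RNA.

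The sequences under the peaks show how varied the bound DNA was. EGR1 recognises GCGTGGGCG and the closely related GCGGGGGCG, and these words were searched on both strands. The stretches below were read from the mm10 (GRCm38.p6) genome of RefSeq and run 5′ to 3′ on the strand of the gene, with the exons of coding transcripts left out. Capitals mark each site that has the fewest mismatches to either word in that peak, which was 0 for Nptx1, 1 for Plk2, Rgs2 and the Arpp21 peak 53.34 kb from a TSS, and 2 for Homer1, Nptx2, Rheb and the other Arpp21 peak. Sites read as the word itself or as its reverse complement, and neighbouring sites that overlap form a single run of capitals. The set goes from a full EGR word (Nptx1) through promoter or upstream DNA with high CpG ratios and imperfect words (Homer1, Plk2, Rgs2, Rheb) to intronic DNA with few or no CpG dinucleotides (Nptx2, Arpp21).
Nptx1, upstream, chr11:119549688-119549793, minus strand: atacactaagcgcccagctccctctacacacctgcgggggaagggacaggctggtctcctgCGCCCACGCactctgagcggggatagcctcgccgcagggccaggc
Homer1, upstream of an internal TSS, chr13:93303620-93303756, plus strand: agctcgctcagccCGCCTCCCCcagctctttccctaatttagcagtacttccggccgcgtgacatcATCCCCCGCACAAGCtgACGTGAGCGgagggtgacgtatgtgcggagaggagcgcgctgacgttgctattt
Plk2, promoter, chr13:110394766-110395023, plus strand: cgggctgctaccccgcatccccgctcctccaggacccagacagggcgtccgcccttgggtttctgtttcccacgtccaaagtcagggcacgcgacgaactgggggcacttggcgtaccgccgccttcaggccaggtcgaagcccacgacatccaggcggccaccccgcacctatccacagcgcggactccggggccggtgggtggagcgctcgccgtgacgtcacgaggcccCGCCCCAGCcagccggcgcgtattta
Rgs2, promoter, chr1:144004172-144004435, minus strand: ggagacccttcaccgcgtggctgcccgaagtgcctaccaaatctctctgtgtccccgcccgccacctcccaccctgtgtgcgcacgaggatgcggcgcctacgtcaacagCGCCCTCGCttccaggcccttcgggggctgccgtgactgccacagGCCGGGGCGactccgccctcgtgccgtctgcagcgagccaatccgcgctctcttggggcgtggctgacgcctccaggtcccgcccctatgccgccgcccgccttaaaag
Rheb, upstream, chr5:24842964-24843213, minus strand: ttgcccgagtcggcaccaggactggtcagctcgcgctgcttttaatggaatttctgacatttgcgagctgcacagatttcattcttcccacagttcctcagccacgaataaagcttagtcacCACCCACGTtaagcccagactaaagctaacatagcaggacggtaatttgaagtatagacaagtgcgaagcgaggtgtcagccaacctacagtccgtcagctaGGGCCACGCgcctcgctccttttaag
Nptx2, intron, chr5:144550141-144550301, plus strand: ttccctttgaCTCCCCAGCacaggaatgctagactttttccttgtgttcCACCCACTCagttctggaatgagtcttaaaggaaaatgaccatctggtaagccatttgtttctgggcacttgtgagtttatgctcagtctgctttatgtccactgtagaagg
Arpp21, intron, 53.34 kb from a TSS, chr9:112132295-112132558, minus strand: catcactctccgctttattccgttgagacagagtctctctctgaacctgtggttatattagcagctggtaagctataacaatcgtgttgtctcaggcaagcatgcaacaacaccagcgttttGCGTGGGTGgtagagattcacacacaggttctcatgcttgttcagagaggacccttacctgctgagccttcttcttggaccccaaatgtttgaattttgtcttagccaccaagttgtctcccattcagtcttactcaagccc
Arpp21, intron, 2.83 kb from a TSS, chr9:112182869-112183017, minus strand: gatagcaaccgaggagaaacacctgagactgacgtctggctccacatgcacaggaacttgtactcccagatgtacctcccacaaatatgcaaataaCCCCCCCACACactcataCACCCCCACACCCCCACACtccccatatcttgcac
The word cgcccacgc in the Nptx1 stretch is the reverse complement of GCGTGGGCG. In the Plk2 stretch, the lower-case tgacgtca just before the marked site is a complete cAMP response element (CRE), the site of CREB. The Arpp21 stretch closest to a TSS holds CA and C repeats, in which 6 sites with 2 mismatches form 2 separate runs of capitals, of 4 and 2 overlapping sites.

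At least 1 peak was present at 9 genes, and Plk3 had none. Counted as 9 of 10 (90%, exact 95% binomial interval 55.5 to 99.7%), this stood beside 39.6% of 21938 protein-coding genes that held a peak by the same rule. A peak centre lay within 2000 bp of a TSS at 8 of the 10 genes, against 29.6% of protein-coding genes, and within 250 bp at 6 of the 10, against 22.1%. These 6 were Arc, Homer1, Synpo, Plk2, Rgs2 and Arpp21. Genes with many annotated start sites have more places to qualify, and Arpp21 has 26, Synpo 11 and Homer1 10. With only the 5′ end of the gene record, 6 genes had a peak centre within 2000 bp and 4 within 250 bp. The matching shares of protein-coding genes were not computed. Long genes offer more room for a peak: 27.4% of genes of up to 10 kb had a peak, 40.7% of those from 10 to 50 kb, 51.4% of those from 50 to 100 kb and 61.6% of longer ones. Of the 5 shortest genes described here, Arc, Nptx1, Plk2 and Rgs2 had a peak and Plk3 did not. The interval covers counting error over genes only. The 10 genes were chosen with earlier results of these data known, so these shares are descriptions only.

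The number of peaks differed widely between the genes. Synpo held 8, Arpp21 held 6, Arc held 5 and Nptx1 held 3, so 4 of the 10 genes held 3 or more peaks, against 4.82% of protein-coding genes. Homer1, Nptx2, Rheb, Plk2 and Rgs2 held 1 peak each. Only 23 protein-coding genes (0.105%) had as many peaks as Synpo or more, 76 (0.346%) as many as Arpp21, and 176 (0.802%) as many as Arc. The counts are not independent of gene size. Arpp21 spans 170.8 kb and has 26 annotated start sites, Synpo spans 66.2 kb with 11, and Arc is only 3.5 kb long with 2, so most of the Arc peaks lay in the flanks that the rule adds.

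**Figure D1:**
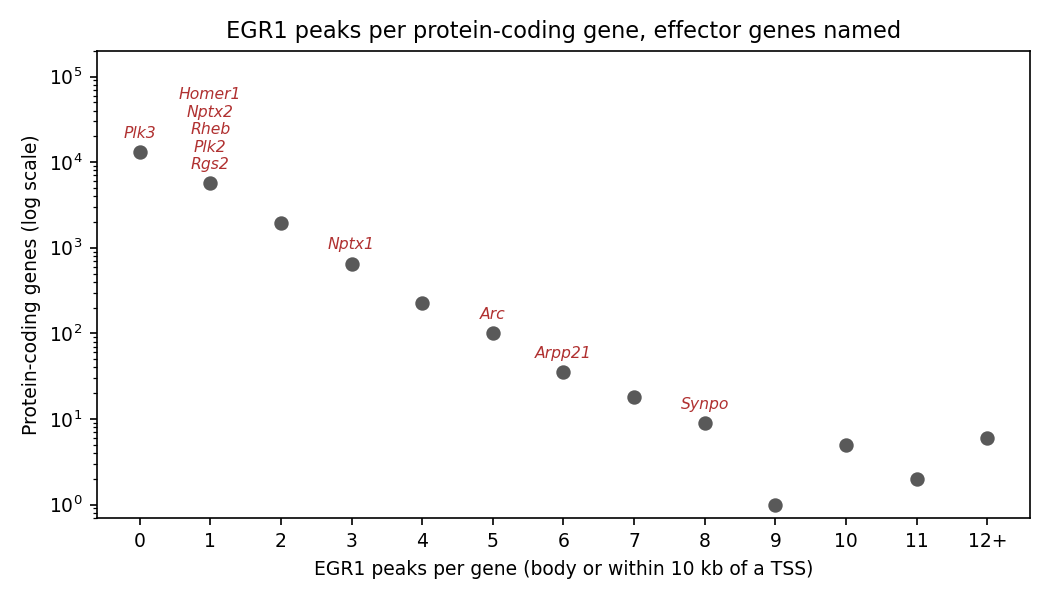
Number of protein-coding genes (vertical axis, log scale) by the number of EGR1 peaks in the gene body or within 10000 bp of a TSS (horizontal axis); the genes described here are named above the point of their own count. Plk3 stands at 0, 5 genes at 1 peak, and Nptx1, Arc, Arpp21 and Synpo lie in the sparse upper range at 3, 5, 6 and 8 peaks.

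Distances to a TSS place 9 of the 27 peaks (33.3%) within 250 bp, 14 (51.9%) within 2000 bp and 13 (48.1%) farther away, and 17 (63.0%) in the gene body. No peak was closer to the TSS of another protein-coding gene. When all annotated genes were counted, 4 peaks had a nearer TSS: an upstream Nptx1 peak lay 1110.5 bp from the processed transcript Gm11762, and 3 intronic Arpp21 peaks lay 10841.5 to 16095.5 bp from Mir128-2, a microRNA gene inside Arpp21.

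**Figure D2:**
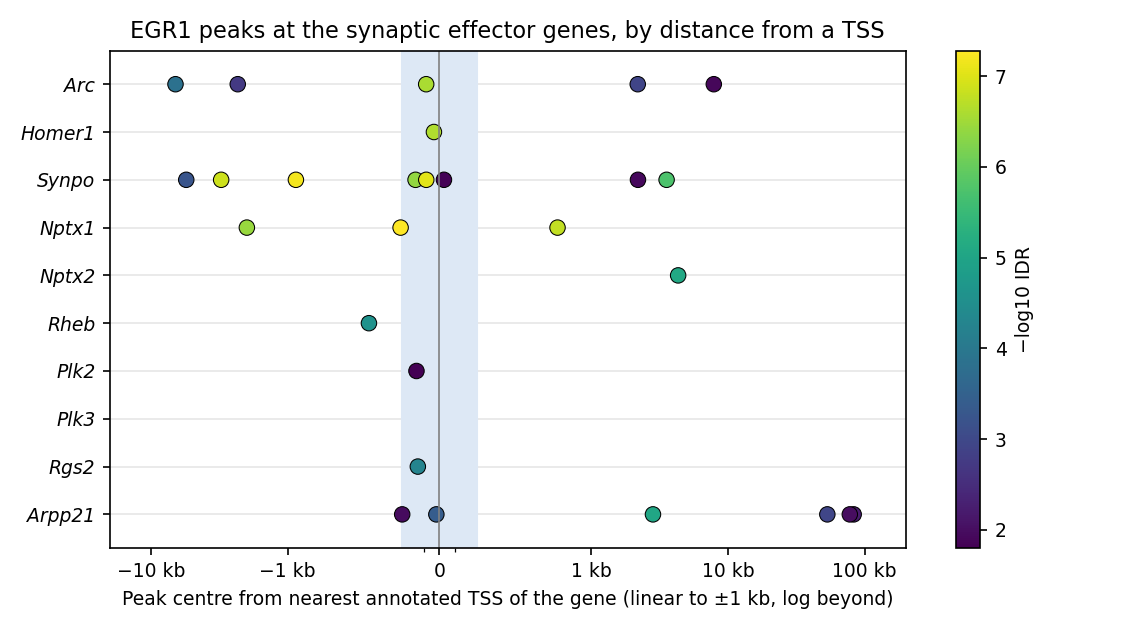
Position of each of the 27 peak centres relative to the nearest annotated TSS of its gene (horizontal axis, linear to 1 kb on either side and logarithmic beyond; negative values are upstream), with 1 row per gene and colour giving the −log10 of the IDR. The shaded band marks 250 bp on either side of the TSS, where 9 peaks lie; Plk3 has no point, and the 3 rightmost Arpp21 peaks are over 50 kb from any of its start sites.

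Among the genes of the postsynaptic side, Arc (ENSMUSG00000022602.14, chromosome 15, 74669083 to 74672570, minus strand) had a peak over its promoter and 4 of higher IDR around it. The promoter peak, from 74672547 to 74672768, was centred 87.5 bp upstream of the TSS with an IDR of 2.63e-07, which ranked 1594 of 12014. It was the most CpG-rich of the 5, with 25 CpG dinucleotides in 222 bp, 73.9% G and C, and a CpG ratio (observed over expected) of 0.862. It held no exact EGR word but 3 sites with 1 mismatch, CCGTGGGCG at -45 bp (G1C against GCGTGGGCG, with positions counted from 1 at the 5′ end of the word), GCCTGGGCG at -86 bp (G3C) and GCGCGGGCG at -109 bp (G4C against GCGGGGGCG). The middle site lay 1.5 bp from the peak centre.

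The other Arc peaks had higher IDR values and CpG ratios of only 0.159 to 0.283. An intronic peak 2.19 kb downstream of the TSS (74670250 to 74670513) had an IDR of 0.00121 and held 2 AP-1 words, TGANTCA, the site of FOS and JUN dimers, which 6.65% of all peaks hold in the 250 bp around their centre. Upstream, a peak at -2.32 kb (74674758 to 74675017) had an IDR of 0.00181. Both of these peaks carried GTGGGGGCG, 1 base from the EGR word (C2T), 0.5 bp and 17.5 bp from their centres. The peak at -6.62 kb (74679054 to 74679317, IDR 0.000143) had no site closer than 2 mismatches, but held a CArG box, the site of serum response factor, found in 0.955% of all peaks in the same window. A far upstream enhancer of Arc that responds to synaptic activity is known, and its position was not compared with this peak. The last peak (74664568 to 74664817) lay 4390.5 bp past the 3′ end of the gene with an IDR of 0.0127, close to the limit of the list. In all, 20 kb around Arc were searched, and no exact EGR word was found inside or outside the peaks.

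Homer1 (ENSMUSG00000007617.18, chromosome 13, 93299635 to 93405129, plus strand) had a single peak. It ran from 93303620 to 93303821 with an IDR of 2.38e-07 (rank 1487) and sat 36.5 bp upstream of the start of the transcript Homer1-207, 4.09 kb inside the first annotated 5′ end. The RefSeq promoter table also places a Homer1 promoter there. Its CpG ratio of 1.04 was the highest of the 27 peaks, with 21 CpG dinucleotides. The 5 nearest EGR-like sites each had 2 mismatches. The stretch printed above held 3 copies of TGACG, the CRE core, at -54, -38 and -12 bp from the start site. A copy of that core was present in 7 of the 27 peaks (25.9%), against 20.4% of all peaks, in windows of 250 bp. The core was added to the searched words after the sequences had been seen, and it is contained in the full CRE.

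Arpp21 (ENSMUSG00000032503.18, chromosome 9, 112065091 to 112235938, minus strand) had 6 peaks spread over 133.6 kb. A promoter peak 20.5 bp upstream of the noncoding transcript Arpp21-218 (112187845 to 112188094) had an IDR of 0.00041, and it overlapped 3 of the 9 Arpp21 promoters in the RefSeq table. It was centred on GCGTGGGTG (C8T), 0.5 bp from its centre. A second promoter peak, 245.5 bp upstream of the noncoding transcript Arpp21-219 at the 5′ end of the gene record (112236052 to 112236315), had an IDR of 0.0111. The lowest IDR at the gene, 9.03e-06, belonged to the intronic peak over the CA repeat at 2.83 kb. The remaining 3 peaks lay in introns 53.34, 77.9 and 83.15 kb from the nearest Arpp21 TSS, with IDR values of 0.00115, 0.0106 and 0.00605. None of the 6 peaks had a CpG ratio above 0.608 or a GC content above 53.0%, so even its promoter peaks were poor in CpG beside those of Arc or Homer1. The 180.8 kb around the gene held no exact EGR word.

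Nptx1 (ENSMUSG00000025582.4, chromosome 11, 119538719 to 119547753, minus strand) had low IDR values throughout. Its 3 peaks had IDR values of 5.25e-08, 1.7e-07 and 3.67e-07 and lay within 2.8 kb of each other. It was also the only gene of the 10 with exact EGR words in its peaks. The promoter peak (119547917 to 119548101), centred 256 bp upstream of the only annotated TSS, ranked 442 of 12014 and had the lowest IDR of the 27 peaks. It held GCGGGGGCG from 119547967 to 119547975, at -218 bp from the TSS, with 3 further sites of 1 mismatch. The peak at -1987.5 bp, printed above, held GCGTGGGCG from 119549724 to 119549732, 12.5 bp from its centre. The intronic peak at 777.5 bp (119546844 to 119547107) had no exact word and 3 sites with 1 mismatch. Both exact words within 10000 bp of the TSS or in the gene body were inside a peak.

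Nptx2 (ENSMUSG00000059991.7, chromosome 5, 144545902 to 144557478, plus strand), the activity-induced relative of Nptx1, presented a different picture. It had no peak at its promoter. Its only peak lay in an intron, 4319 bp downstream of the TSS, with an IDR of 8.2e-06 (rank 3660). The peak held 0 CpG dinucleotides in 161 bp, the only one of the 27 without any, had a GC content of 44.7%, the lowest of the 27, and came no closer to the EGR word than 2 mismatches. A CpG-free sequence cannot hold either exact word, since both contain CG at each end. No exact word was present in the 21.6 kb around the gene.

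Rheb (ENSMUSG00000028945.9, chromosome 5, 24802823 to 24842624, minus strand) had a single peak 464.5 bp upstream of its TSS, with an IDR of 2.64e-05 and a CpG ratio of 0.865. Its best sites had 2 mismatches, among them ACGTGGGTG (G1A and C8T), 1.5 bp from the centre. An exact EGR word did occur near Rheb, at -267 bp from a TSS, but it lay outside the peak. Together the 10 genes and their flanks held 4 exact words, of which the 2 at Nptx1 were in a peak and 1 each at Rheb and Synpo was not. Across the assembled chromosomes, 2150 of 7559 exact words (28.4%) were in a peak.

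Plk2 (ENSMUSG00000021701.8, chromosome 13, 110395046 to 110400844, plus strand) and Rgs2 (ENSMUSG00000026360.9, chromosome 1, 143999338 to 144004161, minus strand) each had a single promoter peak of similar composition. The centres lay 151.5 and 142.5 bp upstream of the TSS, GC contents were 70.2% and 70.1%, and CpG ratios 0.929 and 0.896. The IDR values were far apart, at 0.0158 for Plk2, the highest of the 27 peaks (rank 11522), and 5.21e-05 for Rgs2. The Plk2 peak held the only full CRE, TGACGTCA, from 110394982 to 110394989, at -60.5 bp from the TSS, a word present in 1.42% of all peaks. Its EGR-like site GCTGGGGCG (G3T) was 107.5 bp off the peak centre. Rgs2 had 2 sites with 1 mismatch, GCGAGGGCG (G4A against GCGGGGGCG) and GCCGGGGCG (G3C), 17.5 and 27.5 bp from the centre, and 2 copies of TGACG.

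Plk3 (ENSMUSG00000028680.14, chromosome 4, 117128655 to 117133963, minus strand) had no peak within 10000 bp of a TSS or in its body. Its promoter in the RefSeq table was rich in CpG, with a ratio of 0.762 and a GC content of 62.7%, and carried a site with 1 mismatch to the EGR word but no exact one. The closest peak to a Plk3 TSS was 12.6 kb away (117121084 to 117121347, IDR 3.48e-06), held an exact EGR word and lay 49.5 bp from the TSS of Btbd19. A missing peak says only that none passed the IDR limit in the merged list.

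Synpo (ENSMUSG00000043079.17, chromosome 18, 60593973 to 60660142, minus strand) carried the most peaks, 8 within 32.3 kb, all inside the gene. The 3 with the lowest IDR were among the lowest 10% of the whole list. They lay 945.5 bp upstream of the start of Synpo-205 (IDR 6.44e-08, rank 575), 87 bp upstream of Synpo-202 (9.15e-08, rank 863) and 3065 bp upstream of Synpo-206 (1.39e-07, rank 1096). None of these 3 held an exact EGR word, and each held a site with 1 mismatch, at 13.5, 29 and 37 bp from its centre.

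The remaining Synpo peaks covered a wide range of IDR. The peak 157.5 bp upstream of the noncoding transcript Synpo-204, near the 3′ end of the gene, had an IDR of 4.12e-07, and its centre was in the 3′UTR of a transcript and an intron of others. Peaks 3555.5 bp downstream of Synpo-203 and 5519 bp upstream of Synpo-202 had IDR values of 1.86e-06 and 0.000576. The most CpG-rich Synpo peak, with 32 CpG dinucleotides and a GC content of 78%, was centred 29.5 bp downstream of the start of Synpo-201, and yet it had the highest IDR at the gene, 0.0148. The peak 2194.5 bp downstream of Synpo-203 followed with 0.0119. The 3 peaks of lowest IDR, which were also the narrowest at the gene (98 to 143 bp), had CpG ratios of 0.683, 0.454 and 0.421. These were the highest at Synpo after the 0.863 of the peak at Synpo-201, but they rest on only 2, 4 and 4 CpG dinucleotides.

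Over the 27 peaks, the median IDR was 5.21e-05, against 0.000325 for the 11938 peaks on assembled chromosomes. Of the 27, 15 (55.6%) were at or under the median of all peaks, 10 (37.0%) in the lowest 25% and 4 (14.8%) in the lowest 10%, the 4 being 3 Synpo peaks and an Nptx1 peak. Peaks within 2000 bp of a TSS had a median IDR of 3.90e-07 (14 peaks) and those farther away 0.00115 (13 peaks). For all peaks, by distance from the nearest protein-coding TSS, these medians were 8.56e-05 and 0.00121. At this cut of 2000 bp the median of the proximal peaks was below that of proximal peaks in general. That of the distal peaks was close to the general value. Within 250 bp of a TSS the order was the reverse, with a median of 5.21e-05 (9 peaks) against 3.47e-05 for all peaks. Of the 27 peaks 8 came from Synpo, and peaks of the same gene are not independent. Of the 14 proximal peaks, 4 came from Synpo and 3 from Nptx1, so the proximal median leans on these genes. The other proximal peaks ran from 2.38e-07 at Homer1 to 0.0158 at Plk2.

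**Figure D3:**
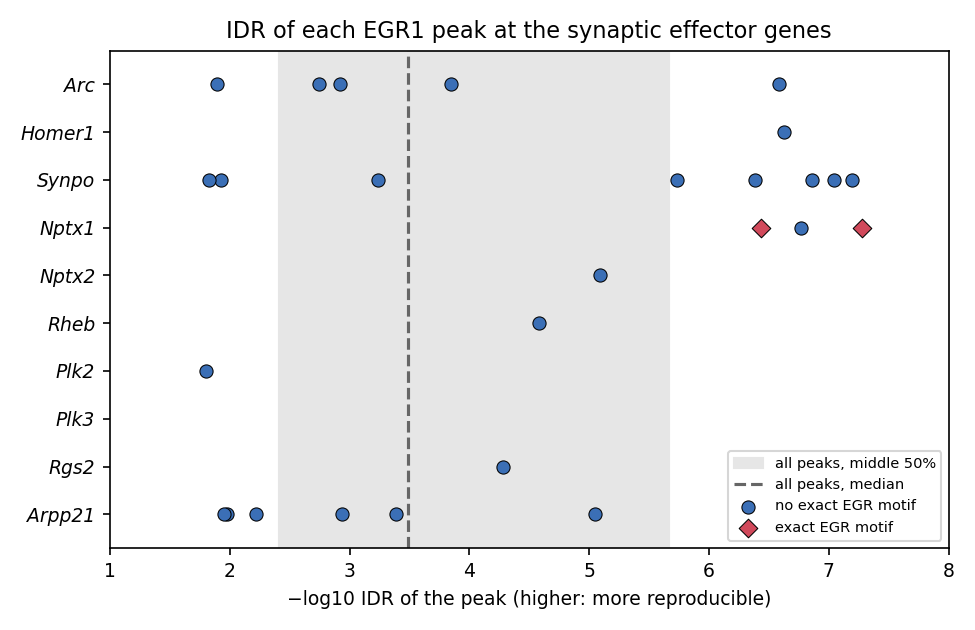
The −log10 of the IDR of each of the 27 peaks (horizontal axis, higher is more reproducible) by gene; the grey band holds the middle 50% of all peaks on assembled chromosomes, the dashed line is their median, and diamonds mark the peaks with an exact EGR word. All 3 Nptx1 peaks lie to the right of the band, Arc and Synpo have peaks on both sides of it, and the Plk2 peak lies to its left.

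An exact EGR word was present in 2 of the 27 peaks (7.41%, exact 95% interval 0.910 to 24.3%), against 16.6% of all peaks, a share that lies inside the interval. The 2 peaks were both at Nptx1. The interval treats the peaks as independent, although peaks of the same gene are not. With 1 mismatch allowed, 20 of the 27 peaks (74.1%) held a site, against 69.8% of all peaks, and the other 7 came within 2 mismatches. The 20 peaks held 30 such sites. In the list as a whole, an exact word was in 6.34% of the 10% of peaks with the highest IDR and in 46.6% of the 10% with the lowest. At these genes, 1 of the 4 peaks in the lowest 10% held it. The word GGGCGG, bound by Sp and KLF factors, was in 11 of the 27 windows of 250 bp (40.7%), against 56.5% of all peaks.

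The observed/expected CpG ratio, which is 1 when CpG dinucleotides are as frequent as the C and G content predicts, had a median of 0.421 over the 27 peaks and 0.600 over all peaks. The value depended on where the peak lay. Within 250 bp of a TSS the median was 0.862 (9 peaks), and over 2000 bp from a TSS it was 0.229 (13 peaks), with no distal peak above 0.421. All peaks gave 0.810 and 0.299 for the same distances from the nearest protein-coding TSS. Arc, Homer1, Plk2 and Rgs2 had near-TSS peaks with ratios from 0.862 to 1.04. The near-TSS peaks of Arpp21 had ratios of 0.517 and 0.608, and those of Synpo ranged from 0.284 to 0.863.

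**Figure D4:**
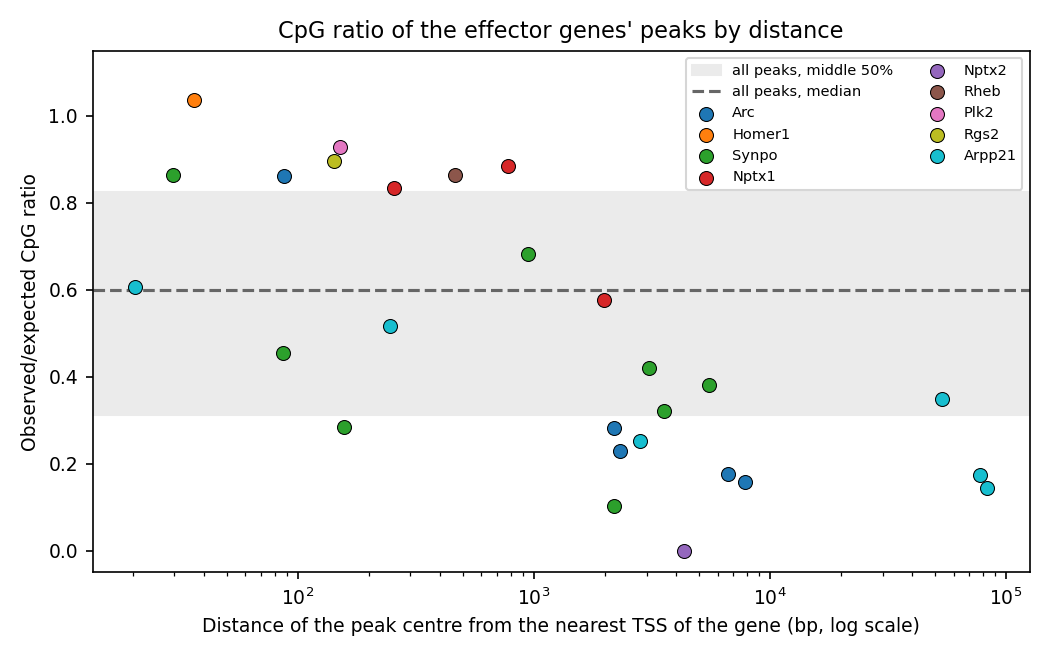
Observed/expected CpG ratio of each of the 27 peaks (vertical axis) against the distance of its centre from the nearest TSS of the gene (horizontal axis, bp, log scale), coloured by gene; the grey band holds the middle 50% of all peaks and the dashed line is their median of 0.600. Every peak over 2000 bp from a TSS lies at or below 0.421, and the Nptx2 peak lies at 0.

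RefSeq promoters, taken as 250 bases before to 50 after a start, were matched for 6 of the 10 genes (Arpp21, Homer1, Plk2, Plk3, Rgs2 and Rheb), with 15 promoters in all. The entries of Arc, Nptx1, Nptx2 and Synpo were not matched. A peak overlapped 6 of the 15, in the genes Arpp21, Homer1, Plk2 and Rgs2, and none of the 15 held an exact EGR word. Most of the 15 were Arpp21 promoters. The Arpp21 promoters among the 6 overlap each other and share the same peak, so the 6 are not independent. Among all 32851 RefSeq promoters, 13.1% overlapped a peak and 3.47% held an exact word. Of those with the word 65.4% overlapped a peak, and of those without it 11.2%. The bound promoters of these 4 genes therefore belong to the larger class of bound promoters that lack the full word, which numbered 3547 of 4292.

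Genes related to the 10 by family, by protein contact or by induction were examined by the same rule. The lists were drawn up by known function, but with earlier results of these data known, so their shares are descriptions only. Of 13 family relatives, 3 held a peak: Nptxr, the membrane-bound pentraxin receptor, Rhebl1 and Plk5. The relatives without one included Homer2, Homer3, Plk1, Plk4 and Synpo2. Of 21 genes for partners of these proteins, 20 (95.2%) held a peak, among them Shank1 with 8 peaks, whose product binds Homer proteins, and the mTOR pathway genes Tsc1 and Tsc2 upstream of Rheb. Gria4 was the partner without a peak. Many partner genes are long, up to 550.7 kb for Grm5, whereas most family relatives are shorter, with Synpo2 the longest at 159.6 kb. Among protein-coding genes, 61.6% of those over 100 kb held a peak and 40.7% of those from 10 to 50 kb, so the 2 lists differ in gene length as well.

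Other activity-induced effectors held a peak in 11 of 16 cases (68.8%), with up to 6 peaks, at Per1, and 4 each at Nrn1 and Vgf. Ptgs2, Inhba, Syt4, Pcsk1 and Scg2 held none. Of the 7 FOS and JUN genes, which encode the subunits of AP-1, 6 held a peak and Fos held none, while Junb held 5. Of 15 scaffold and CaMKII genes of the postsynaptic density, 14 (93.3%) held a peak, with a median of 4 and Dlg1 as the exception. These scaffold genes are long, up to 1972.6 kb for Dlg2, and the 3 Shank genes are in this list and in that of the partners. All shares are to be read beside the 39.6% of protein-coding genes with a peak, and beside gene length.

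**Figure D5:**
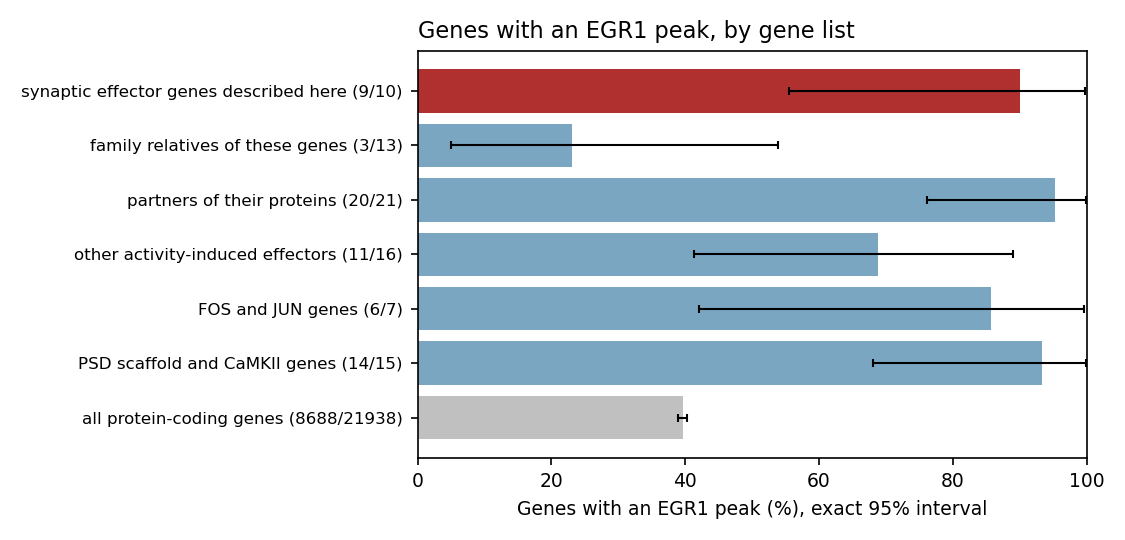
Share of genes with an EGR1 peak in the gene body or within 10000 bp of a TSS (bars, %, from 0) for the 10 genes, for 5 related lists and for all protein-coding genes, with exact 95% binomial intervals and the counts beside each name. Of the 10 genes 9 have a peak and of the partners 20 of 21, while 3 of 13 family relatives have a peak, with an interval that includes the 39.6% of all genes.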

How the data were processed

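EGR1 ChIP-seq of mouse frontal cortex was analysed from the peak list that the authors deposited. The authors mapped reads to mm10 with Bowtie, called peaks with SPP in 2 replicates and merged the peaks with an IDR of up to 2%. The submitters' processing notes name cutadapt, Bowtie2 2.2.9 and bedtools 2.26.0. The deposited value is the IDR of each peak, read like a q-value (p-value scale), beside its start and end. Read depth is unknown, and intervals (exact Clopper-Pearson, 95%) cover counting error over genes or peaks only.

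Whether starts count from 0 or 1 is not given in the sources used here. They were read as in BED files, and positions are printed counted from 1. Gene models were GENCODE M21 and sequences GRCm38.p6. The 76 peaks on scaffolds were left out of gene and sequence results. Words were searched in whole peaks for EGR sites, and in the 250 bp around each centre for the other words. Python 3.11.15, numpy 2.4.6, pandas 2.3.3, scipy 1.17.1 and pysam 0.24.0 were used, and the assignment and search steps were tested on simulated data. With 1 merged list, no test between groups was made.

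The 10 genes and the related lists were chosen with earlier results of these data known. All 10 are named. Genes of the related lists are given as counts. Only those with a peak near a TSS or with no peak were open to naming, and the ones printed are examples picked from these after their values were seen. Nptxr, with no peak within 2000 bp of a TSS, and Btbd19, nearest to the peak closest to Plk3, were also named after their values were seen. Alternatives were another distance, a stricter IDR, another gene start, overlap in place of the centre, another motif window or mismatch limit, and starts counted from 1.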

Additional observations from a re-analysis of the deposited data

How the results depend on the processing

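Of 40 recomputed values for 8 results, 30 stayed within a factor of 1.5 of the reported value (for the share of protein-coding genes, inside its exact 95% interval) and 10 did not. Genes with a peak numbered 8 to 10 under all 8 alternatives: Plk3 gained a peak at 20 kb, and Plk2 lost its only peak at an IDR of 0.01. Those with a peak within 250 bp of a TSS numbered 4 to 7, with 4 when only the 5′ end of the gene record was used. An IDR of 0.001 or less left 17 of the 27 peaks. The median IDR fell to 8.2e-06 at a limit of 0.01 and to 4.12e-07 at 0.001, by construction, since peaks of higher IDR were dropped. Allowing 1 mismatch raised the peaks with an EGR word from 2 to 20. With exact words searched up to 250 bp on either side of each peak centre, 3 peaks held one. The share of protein-coding genes with a peak, 39.6%, was 36.0% at 5 kb, 45.9% at 20 kb, 37.2% without the gene body, 38.4% from the 5′ end only, and 37.0% and 29.0% at IDR limits of 0.01 and 0.001. No paired analysis was possible because the deposited list merges both replicates, and for the same reason no replicate could be left out.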
